A study of Mus musculus with 8 samples.

Results

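ATF4 and 32 further genes of the integrated stress response, 33 in all, were followed in mouse CD8+ T cells cultured with agonists of the PPAR nuclear receptors. The members were taken as a named list, and their rows were found in the deposited expression table by gene symbol. Of the 33 genes, 32 had a transcript cluster of their own, which is the group of probes that reads 1 gene, and 30 lay above the floor for testing, out of 21160 genes in the table and 12696 tested. Ppp1r15a and Aldh1l2 lay below the floor, and Aars shared its cluster with Exosc6. Transcripts were measured on 8 Clariom S Mouse arrays in 4 groups of 2 arrays: DMSO, a PPARα agonist, a PPARβ agonist and a PPARγ agonist. All groups share the same background: female CD8+ T cells, naive at the start, stimulated in vitro, exposed for 48 h and labelled day 2. The sources used here give neither the compounds and doses nor the stimulus and strain, and no group carries an engineered allele in the labels. Sample titles carry 2 prefixes, and each prefix marks 1 array of every group. The 4 arrays of a prefix are called culture set 1 and culture set 2 below, although the labels leave unsaid whether it stands for a day, an animal, a pool of cells or a round of arrays.

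ATF4 is a basic leucine zipper transcription factor whose messenger RNA is translated when eIF2 is phosphorylated. The kinases that phosphorylate eIF2 respond to scarce amino acids, misfolded protein in the endoplasmic reticulum, lack of heme or double-stranded RNA, and mitochondrial stress reaches the same point. ATF4 pairs with C/EBP proteins and raises genes for amino acid synthesis and uptake, one-carbon metabolism in mitochondria, tRNA charging and, in a prolonged response, growth arrest and cell death. In activated T cells, which make protein at a high rate, the factor is known for supplying amino acids and one-carbon units. Control of ATF4 acts largely on translation, so its transcript level does not measure its protein. PPARα, PPARβ and PPARγ are fatty acid-sensing receptors, best known for genes of lipid metabolism, and the comparison asks whether an agonist moves the stress programme.

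The DNA letters through which ATF4 and a C/EBP partner bind are known. They are shown for some of the 9 members, of 27 searched, that carry them near their start. A match describes letters and is not a measured binding site. RefSeq promoter windows on GRCm38.p6, from 250 bases before to 50 bases after a transcript start, existed for 27 of the 33 members. The core TGATGNAA of the C/EBP-ATF response element, searched on both strands (TTNCATCA on the other), was present in windows of 9 of these 27 members, or 33.3%, against 4.51% of the 27025 genes in the promoter table. The 9 were Atf3, Trib3, Chac1, Asns, Pck2, Vldlr, Nupr1, Aars and Gars. Counted by window, it was in 30.0% of the 30 member windows and in 3.97% of all 32851. The palindrome TGACGTCA, the cyclic AMP response element, was in 1 member window, that of Ppp1r15a, or 3.70% of members against 2.03% of genes, and it did not overlap a C/EBP-ATF core there. Members are on the list for their known link to ATF4, so the higher share describes the list and is no independent result. Below, the cores of 5 of the 9 members that hold one stand in capitals as examples. Each is shown with its neighbouring bases and read 5′ to 3′ on the strand of its gene.
Atf3: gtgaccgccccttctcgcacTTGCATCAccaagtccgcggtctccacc
Asns: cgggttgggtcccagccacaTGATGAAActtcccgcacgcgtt
Gars: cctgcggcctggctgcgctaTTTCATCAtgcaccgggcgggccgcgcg
Chac1: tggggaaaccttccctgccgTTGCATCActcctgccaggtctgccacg
Vldlr: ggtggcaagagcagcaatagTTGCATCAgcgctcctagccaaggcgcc
These stretches lie at chr1:191183416-191183463 (minus strand) for Atf3, chr6:7693210-7693252 (minus) for Asns, chr6:55037951-55037998 (plus) for Gars, chr2:119351029-119351076 (plus) for Chac1 and chr19:27216800-27216847 (plus) for Vldlr. The core of Asns reads in the forward sense and starts 23 bases before the transcript start, while the other 4 read as the reverse complement, starting 110 bases before it in Atf3, 30 in Gars, 193 in Chac1 and 200 in the second of the Vldlr windows. Atf3, Chac1 and Vldlr share the same 8 letters.

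All values below are log2 RMA values, a background-corrected and between-array normalised log2 intensity, and a difference of 1 is a doubling in those units. Array medians lay between 5.64 and 5.72, and precision is limited by how few arrays there were. The CD8 chains Cd8a and Cd8b1 read 16.48 to 17.28 and 4 T cell receptor complex genes 13.43 to 17.11 on every array, as the label requires. Defining markers of natural killer cells, macrophages, neutrophils, dendritic cells and erythroid cells stayed at or below 5.74. The B cell genes Cd79a and Ms4a1 stayed at or below 4.07, while Cd79b alone read 9.13 to 9.94. Cd4 read 8.31 to 9.15 in set 1 and 7.46 to 8.40 in set 2. Zbtb7b, the other CD4 T cell marker, read 5.32 to 5.89 in set 1 and 5.48 to 6.09 in set 2. The part of CD4 cells in the results was not tested. In these bulk samples, fewer cells of a type and less RNA per cell cannot be told apart.

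None of the 30 tested members passed in any comparison between treatments, in fits with or without the culture set. At most 0.0236% of all genes tested did so in these fits. At matched treatment, 12 of the 30 were lower in culture set 2 than in set 1, against 9.74% of all genes tested. The share of a member's variance that lay between the sets had a median of 53.6%, against 26.4% over all genes tested. The share between treatments was 24.6% for members and 29.9% for all genes. The set share exceeded the treatment share in 23 of 30 members, or 76.7%, and in 46.1% of all genes. For Atf4 the set took 97.5% of the variance and the treatment 2.2%, while for Sesn2, which encodes a leucine-sensing inhibitor of mTORC1, the set took 0.1% and the treatment 67.0%.

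**Figure D1:**
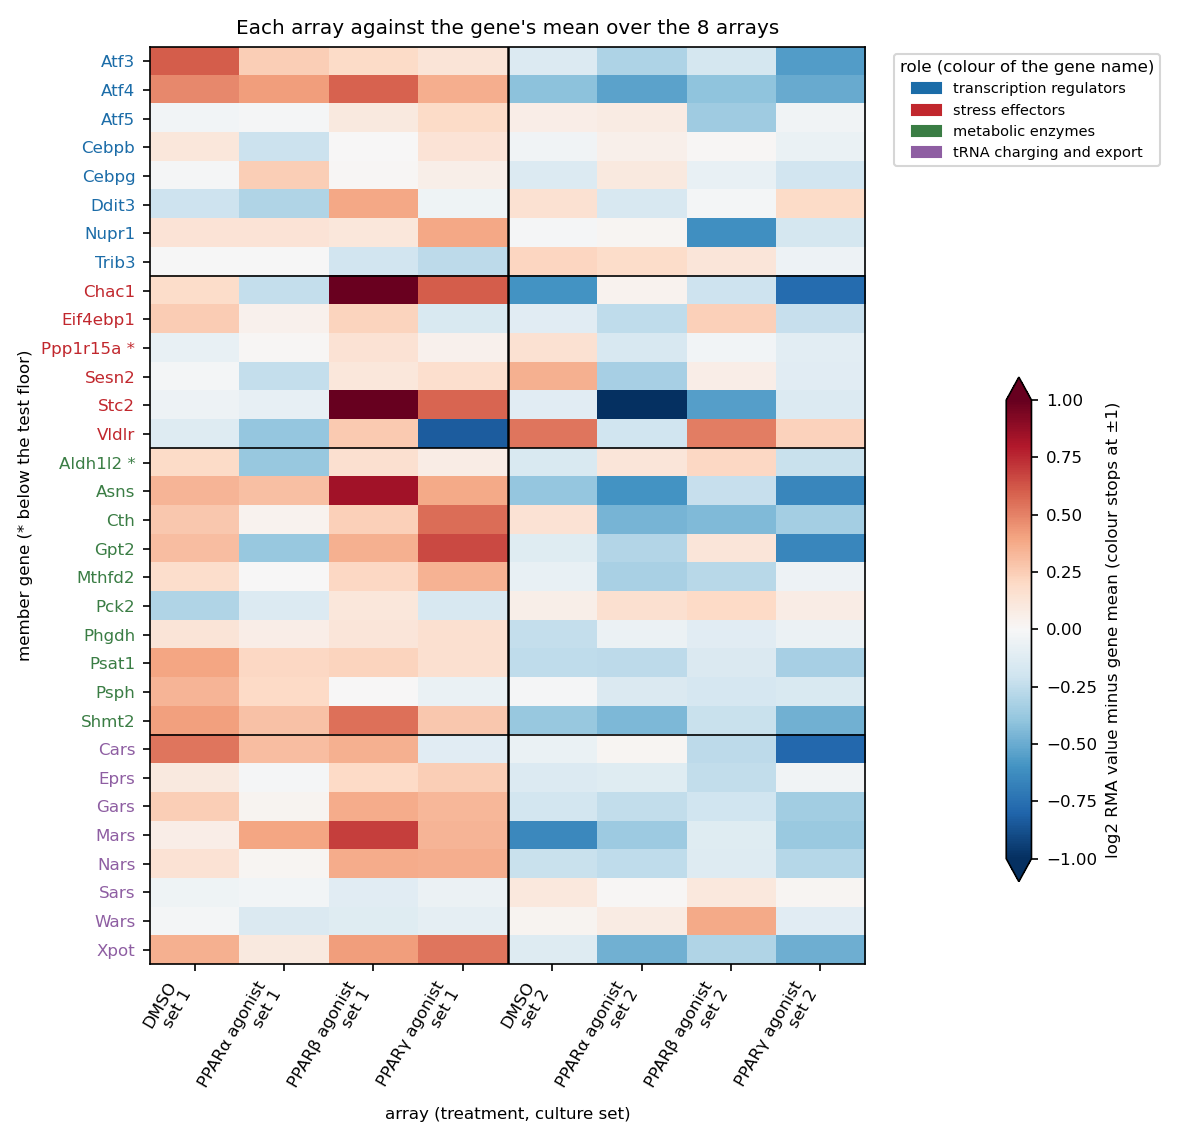
Each cell is the log2 RMA value of a member on 1 array minus that member's mean over the 8 arrays, with rows grouped by role and the 4 arrays of each culture set side by side. Atf4, Asns, Shmt2 and Mars are above their mean in every treatment of set 1 and below it in every treatment of set 2, while Ddit3, Cebpb and Sesn2 show no such split.

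Atf4 itself (chromosome 15, 80255184 to 80257545, plus strand, mm10) read 14.14, 14.08, 14.26 and 14.03 in set 1 with DMSO and the PPARα, PPARβ and PPARγ agonists. In set 2 it read 13.26, 13.13, 13.27 and 13.16 in the same order. The 4 arrays of set 1 lay above the 4 of set 2 with no overlap. The difference, set 2 minus set 1, was -0.92 ± 0.06 (SD over 4 treatments; SE 0.0914, limma adjusted p = 0.00226), or 1.90-fold lower, and ranged from -0.87 to -0.99. Asns, the enzyme that makes asparagine from aspartate, read 11.75, 11.71, 12.25 and 11.78 in set 1 and 11.02, 10.81, 11.18 and 10.76 in set 2. Its groups of 4 did not overlap either, and the PPARβ agonist array was the highest within each set. The difference was -0.93 ± 0.16 (limma adjusted p = 0.00294).

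The comparison of the sets used treatment as a covariate, so that it rests on 4 matched pairs of arrays. limma called 12 of the 30 tested members lower in set 2, or 40%, and 0 higher. Over all genes tested it called 9.74% lower and 7.25% higher. At an unadjusted p under 0.05, 18 members were lower and 3 higher, against 17.2% and 15.5% of all genes. Of these, Stc2, Chac1, Nupr1, Eprs, Phgdh and Psph on the lower side and Trib3, Pck2 and Vldlr on the higher side were not called. The members' median difference was -0.38, against 0.0034 over all genes. Below 0 lay 24 members and above it 6, where 49.5% of all genes lay below 0. All 4 arrays of set 2 lay below all 4 of set 1 for 14 members, against 13.4% of all genes, and above for 1 member, Sars, against 11.7%. There is 1 set per prefix, so the test measures how steady the difference was across treatments, not how sets vary. What a prefix marks and any array batch it holds cannot be told apart from the cells.

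Among the 8 transcription regulators, Atf4 and Atf3 were called lower in set 2. Atf3 encodes a bZIP factor that is induced early by many stresses. It read 8.02, 7.66, 7.61 and 7.55 in set 1 and 7.28, 7.10, 7.24 and 6.86 in set 2, so that the lowest array of set 1 stood above the highest of set 2. Its difference was -0.59 (limma adjusted p = 0.0114). Ddit3, which encodes the pro-apoptotic factor CHOP, read 8.39, 8.29, 8.99 and 8.55 in set 1 and 8.75, 8.44, 8.58 and 8.79 in set 2. These arrays overlapped, and the difference was 0.08 (adjusted p = 0.725). Trib3, a pseudokinase known to damp ATF4 and CHOP, read 9.09 to 9.35 in set 1 and 9.31 to 9.57 in set 2, a difference of 0.23 (adjusted p = 0.127) in the direction opposite to Atf4. The C/EBP partners Cebpb and Cebpg stood at -0.02 and -0.15, Atf5 at -0.12, and Nupr1, a small stress-induced chromatin protein, at -0.39 (adjusted p = 0.0899).

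The metabolic enzymes held 5 called members among 9 tested. Shmt2, the mitochondrial serine hydroxymethyltransferase that feeds one-carbon units from serine, read 15.13, 15.01, 15.27 and 15.00 in set 1. In set 2 it read 14.35, 14.28, 14.50 and 14.25. The sets did not overlap, and the 4 treatments gave nearly the same difference, from -0.74 to -0.78 (mean -0.76 ± 0.02, limma adjusted p = 0.00351). Mthfd2, the next enzyme of that mitochondrial pathway, differed by -0.37 (adjusted p = 0.0399). Of the serine synthesis enzymes, Psat1, the aminotransferase, differed by -0.49 (adjusted p = 0.0158), whereas Phgdh, the first enzyme, and Psph, the last, both stood at -0.24 and did not pass (adjusted p = 0.132 and 0.144). Cth, which makes cysteine from cystathionine, differed by -0.55 (adjusted p = 0.0353), with overlap between its sets because the DMSO pair differed by -0.13 alone. Gpt2, the mitochondrial alanine aminotransferase, stood at -0.47 (adjusted p = 0.17), with pairs from -1.31 to 0.08. Pck2, which makes phosphoenolpyruvate in mitochondria, was the 1 enzyme above 0, at 0.24 (adjusted p = 0.13). Aldh1l2, a mitochondrial formyltetrahydrofolate dehydrogenase below the floor, read 4.06 to 4.63 in set 1 and 4.22 to 4.65 in set 2.

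**Figure D2:**
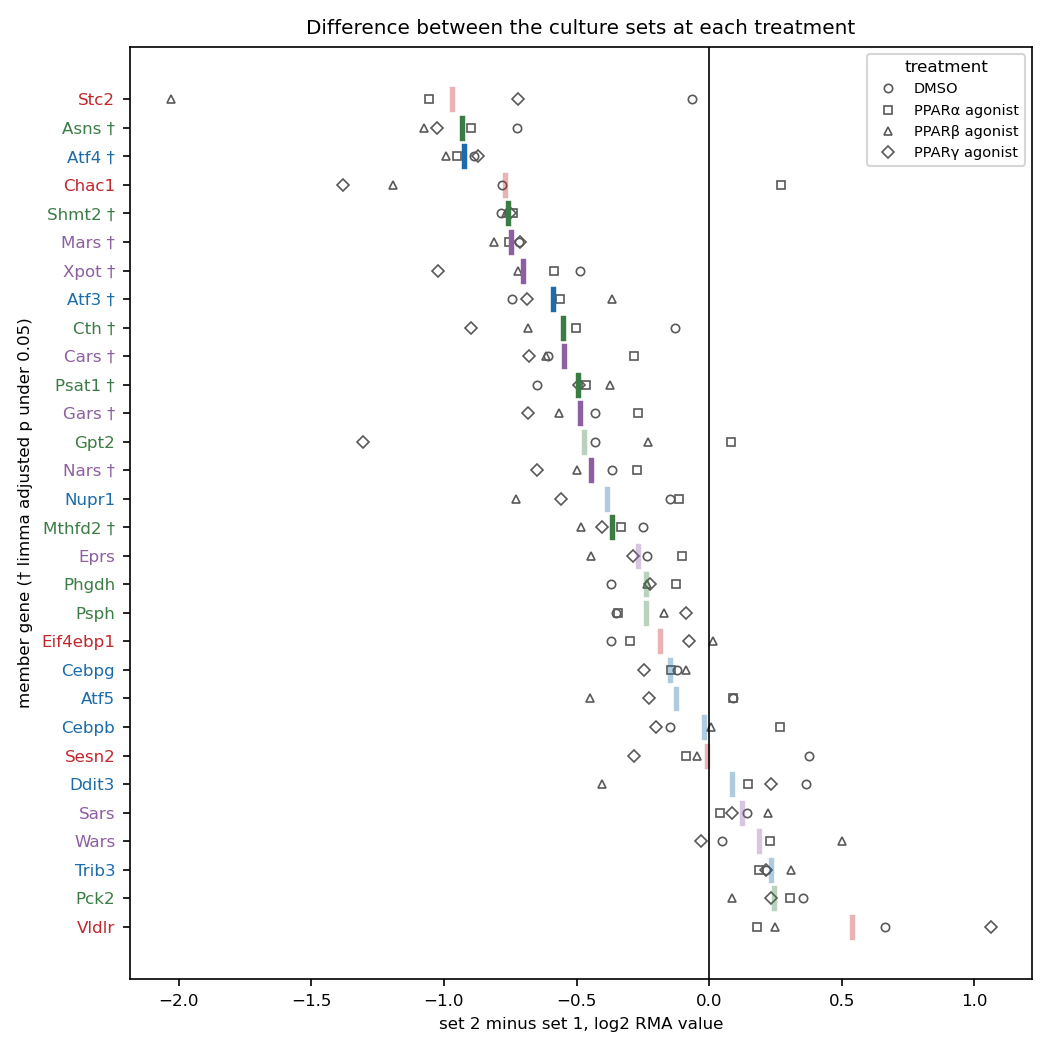
Set 2 minus set 1 in log2 RMA units for each tested member, with 1 open symbol per treatment and a bar at the mean, coloured by role. Solid bars and daggers mark the 12 members past limma's threshold, and the 4 symbols of Shmt2 lie between -0.74 and -0.78 while those of Stc2 spread from -0.07 to -2.03.

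Genes of tRNA charging and export held 5 called members among 8 tested. Mars, the methionyl-tRNA synthetase gene (Mars1 in RefSeq), read 9.73, 10.06, 10.36 and 10.01 in set 1 and 9.02, 9.30, 9.55 and 9.29 in set 2. In each set the DMSO array was the lowest and the PPARβ agonist array the highest. Its set difference was -0.75 ± 0.05 (limma adjusted p = 0.00375). Xpot, the exporter that carries tRNA out of the nucleus, differed by -0.70 (adjusted p = 0.00925), Cars, the cysteinyl synthetase, by -0.55 (0.0154), Gars, the glycyl synthetase, by -0.49 (0.0231), and Nars, the asparaginyl synthetase, by -0.45 (0.0283). The synthetases were not uniform. Eprs, which charges both glutamate and proline, stood at -0.27 (adjusted p = 0.113), Sars, for serine, at 0.12 (0.41) and Wars, for tryptophan, at 0.19 (0.316). The cluster shared by Aars and Exosc6 differed by -0.36 and belongs to neither gene alone.

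limma called 0 of the 5 tested stress effectors. At an unadjusted p under 0.05 there were 3, Stc2 and Chac1 lower and Vldlr higher, where 32.7% of all genes passed in either direction. Stc2, a secreted glycoprotein, read 6.23, 6.20, 7.76 and 6.86 in set 1 and 6.17, 5.14, 5.73 and 6.14 in set 2. The sets did not overlap, but the gap was -0.07 with DMSO and -2.03 with the PPARβ agonist, and the mean of -0.97 ± 0.82 did not pass (limma adjusted p = 0.054). Chac1, which breaks down glutathione, read 5.13, 4.70, 5.93 and 5.55 in set 1 and 4.34, 4.97, 4.74 and 4.17 in set 2, near the floor of 4.89. Its sets overlapped, because the PPARα agonist pair went the other way (0.27), and the mean was -0.77 (adjusted p = 0.0802). Vldlr, a lipoprotein receptor, stood highest of the members at 0.54 (adjusted p = 0.0583). Eif4ebp1, which encodes a translation repressor that binds eIF4E, stood at -0.18 and Sesn2 at -0.01. Ppp1r15a, the phosphatase subunit that reverses eIF2 phosphorylation, lay below the floor at 4.12 to 4.43 on all 8 arrays.

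The calls depended in part on single treatments. Atf4, Asns, Shmt2, Mars and Xpot kept their calls whichever pair was left out. Without the PPARγ agonist pair 6 members were called, without the DMSO pair 7 (Stc2 newly among them), without the PPARβ agonist pair 7, and without the PPARα agonist pair 9 (Chac1 newly among them), while the share of all genes called lower was 5.36 to 6.04%. Cars, Gars, Cth, Psat1, Nars and Mthfd2 each lost their call without at least 3 of the 4 treatments, and Atf3 lost it without DMSO. Of the 12 called members, 9 had a promoter window and 3 of these, Asns, Atf3 and Gars, held the C/EBP-ATF core shown above. Of the other 20 members with a cluster, 17 had a window and 5 of these held it.

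In 7 further lists of genes related to the members, with 101 tested genes, limma called 28 lower in set 2, or 27.7%, and 9 higher, or 8.91%. The shares of all genes tested, for these counts and those per list below, were 9.74% lower and 7.25% higher. Among 16 upstream kinases and eIF2 factors, 1 was higher and 3 were lower. Eif2ak3, the kinase PERK of the endoplasmic reticulum, was higher by 0.60 (adjusted p = 0.00893). Lower were Eif2s1, the eIF2 subunit that is phosphorylated, at -0.44 (0.0415), and 2 subunits of its exchange factor, Eif2b3 at -1.55 (0.00123) and Eif2b4 at -0.55 (0.0244).

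Among 21 other known ATF4 targets, 6 were lower and 4 higher. The lower ones were 5 genes of amino acid transport and Got1, the cytosolic aspartate aminotransferase, at -0.72 (limma adjusted p = 0.00675). Slc7a5 and Slc3a2, the chains of the large neutral amino acid carrier, differed by -0.93 (0.00957) and -0.39 (0.0347), the glutamine carrier Slc1a5 by -0.91 (0.00373), the arginine carrier Slc7a1 by -0.75 (0.00401) and Slc1a4 by -0.73 (0.0102). The higher ones were Ddit4, an mTORC1 inhibitor, at 0.67 (0.00753), Klhl24 at 0.68 (0.00518), the bZIP repressor Jdp2 at 0.56 (0.0394) and the autophagy gene Map1lc3b at 0.37 (0.0363). The list thus held calls in both directions, with a median of -0.12.

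Of 12 tested cytosolic tRNA synthetases outside the members, 11 lay below 0, against 49.5% of all genes, with a median of -0.35. The 5 called were Iars at -0.65 (limma adjusted p = 0.0144), Lars at -0.47 (0.0257), Tars at -0.44 (0.024), Yars at -0.37 (0.0383) and Hars at -0.36 (0.0433). Of 15 mitochondrial synthetases, Mars2, Yars2 and Rars2 were lower, by -0.74, -0.73 and -0.59. Folate and glycine cycle enzymes had 5 called lower and 0 higher of 11, with 6 of 11 at an unadjusted p under 0.05, against the 32.7% of all genes. The called ones were Shmt1, the cytosolic partner of Shmt2, at -1.61 (0.000989), Gcsh, of the glycine cleavage system, at -1.24 (0.00117), and the purine and folate enzymes Gart at -0.83 (0.00375), Mthfd1 at -0.72 (0.00746) and Atic at -0.45 (0.0399).

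Both chaperone lists held calls in both directions. Of 9 mitochondrial chaperones and proteases, Hspa9, Clpp, Hspd1 and Hspe1 were lower, by -0.69, -0.68, -0.59 and -0.54, and Afg3l2 was higher by 0.38. Of 17 endoplasmic reticulum chaperones and sensors of the ATF6 and XBP1 arms, Hyou1 and Pdia6 were lower, by -0.66 and -0.35, and Edem1 and Dnajc3 higher, by 0.48 and 0.41. The medians of these lists were -0.16 and -0.06.

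**Figure D3:**
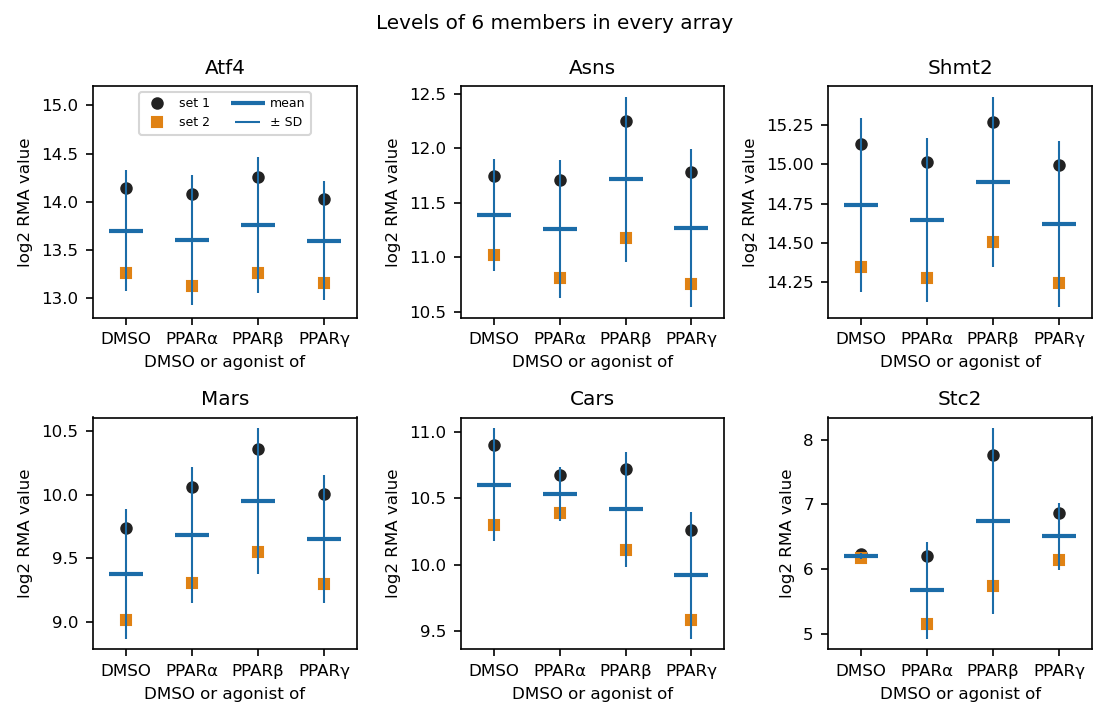
Log2 RMA values of 6 members on every array, by treatment, with circles for culture set 1, squares for set 2, and the mean ± SD of the 2 arrays of a treatment. In Atf4, Shmt2 and Mars the gap between the sets is wider than any gap between treatments within a set, and in Stc2 the sets nearly touch with DMSO and stand 2.03 apart with the PPARβ agonist.

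Against that spread, the agonists moved no member past the test. Because each set holds 1 array of every treatment, a fit with the set as a replicate block takes the gap between sets out of the spread, and both fits are given. limma called 0 of 30 members in each of the 6 comparisons of 2 treatments, and 0 for any difference among the 4 treatments, without the block and with it. Over all genes, the share called without the block was 0% for the PPARα and for the PPARγ agonist against DMSO and for PPARγ against PPARα, and 0.00788% in the other comparisons. With the block it was 0% in the same 3, 0.0236% for the PPARβ agonist against DMSO, and 0.0158% in the others. Without the block, 0 members had an unadjusted p under 0.05 in any of them. The share of all genes there was 1.77% for the PPARα, 2.35% for the PPARβ and 2.17% for the PPARγ agonist against DMSO. It was 2.32% for PPARβ against PPARα, 2.01% for PPARγ against PPARα, 2.65% for PPARβ against PPARγ and 1.78% for any difference. The block's 95% intervals on a member's change had a median half-width of 0.35 (1.27-fold) and reached 0.92 for Stc2. These intervals are not adjusted for the number of genes, so a call needed a larger change than they show.

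The PPARα agonist against DMSO asks what activating this receptor does to the programme. Atf4 changed by -0.06 in set 1 and -0.13 in set 2 (mean -0.10, 95% interval -0.40 to 0.21). The members' median was -0.10 (-0.13 in set 1, -0.07 in set 2), against -0.02 over all genes. Of the members, 7 lay above 0 and 23 below, where 45.8% of all genes lay above 0. Below 0 in both sets were 18 members, a count for which no share of all genes was taken. With the block, 2 of 30 members had an unadjusted p under 0.05, where 4.86% of all genes did. Sesn2 read 6.22 and 6.60 with DMSO and 5.9998 and 5.91 with the agonist in sets 1 and 2. Both agonist arrays were below both DMSO arrays, a difference of -0.45 (limma unadjusted p = 0.0383, adjusted p = 0.986). The other was Mars at 0.31, the opposite direction (adjusted p = 0.986). A change of at least 0.3 in the same direction in both sets was reached by 0 members and by 4.79% of all genes.

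With the PPARβ agonist, Mars and Chac1 were the members at least 0.3 above DMSO in both sets. From the values above Mars stood 0.62 over DMSO in set 1 and 0.53 in set 2, a mean of 0.57 or 1.49-fold (95% interval 0.27 to 0.88). The agonist array of set 2, at 9.55, nevertheless lay below the DMSO array of set 1, at 9.73, so the 2 groups overlapped across sets. Its unadjusted p with the block was 0.00261, and its limma adjusted p was 0.582 with the block and 1 without. It was the 1 member of 30 under 0.05 unadjusted, where 6.13% of all genes were. Chac1 stood at 0.80 and 0.39 (mean 0.60, 1.51-fold, 95% interval -0.24 to 1.44, adjusted p = 0.91 with the block), and the step of 0.3 in both sets was reached by 5.47% of all genes. Asns stood at 0.50 and 0.15 (interval -0.01 to 0.67), and Atf4 at 0.11 and 0.01 (interval -0.24 to 0.36). Stc2 was 1.53 above DMSO in set 1 and 0.43 below it in set 2 (95% interval of the mean -0.37 to 1.47). The median over members was 0.05 (0.05 and -0.01 in the sets) against -0.01 over all genes. Of the members, 16 lay above 0 and 14 below, where 47.5% of all genes lay above 0.

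With the PPARγ agonist the members that differed from DMSO by at least 0.3 in both sets lay below it. Cars read 10.91 and 10.30 with DMSO and 10.26 and 9.58 with the agonist. Within each set the agonist array was the lowest of the 4, but the agonist array of set 1 and the DMSO array of set 2 lay within 0.05 of each other. The change was -0.65 and -0.72, a mean of -0.68 or 1.61-fold lower (95% interval -1.04 to -0.33), with an unadjusted p of 0.00238 and a limma adjusted p of 0.806 with the block. Atf3 stood at -0.47 and -0.42 (adjusted p = 0.806) and Vldlr at -0.70 and -0.30 (adjusted p = 0.822). These were the 3 of 30 members to do so, against 5.27% of all genes, and 2 of 30, Cars and Atf3, had an unadjusted p under 0.05, against 5.84%. Atf4 stood at -0.11 and -0.10 (interval -0.41 to 0.20). The median over members was -0.07 (0.08 and -0.11 in the sets) against -0.01 over all genes.

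**Figure D4:**
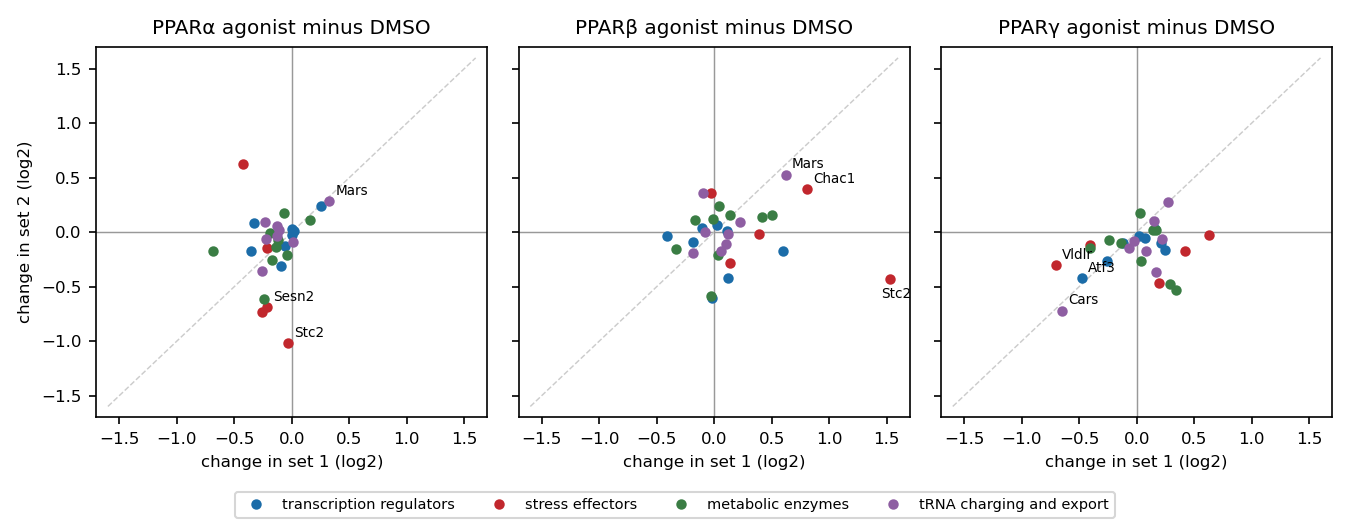
Agonist minus DMSO in log2 RMA units for the 30 tested members, set 1 on the horizontal and set 2 on the vertical axis, coloured by role, with the dashed line marking equal change. Mars with the PPARβ agonist (0.62 and 0.53) and Cars with the PPARγ agonist (-0.65 and -0.72) lie near the line and away from 0, and Stc2 with the PPARβ agonist (1.53 and -0.43) lies far from it.

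The 3 agonists were compared with each other in the remaining 3 pairs, with p-values adjusted over all genes within each pair. These pairs share arrays with one another and with the comparisons against DMSO. For PPARβ against PPARα, 23 members lay above 0 and 7 below, where 51.9% of all genes lay above 0. Their median was 0.15 (0.21 and 0.10 in the sets) against 0.01 over all genes. All 5 tested stress effectors lay above 0, but Chac1 among them stood at 1.23 in set 1 and -0.24 in set 2. The 8 transcription regulators split into 4 above and 4 below. Metabolic enzymes lay 7 above and 2 below, and genes of tRNA charging and export 7 above and 1 below. With the block, 3 members, Asns (0.54 and 0.36), Vldlr (0.65 and 0.71) and Stc2 (1.56 and 0.59), had an unadjusted p under 0.05, against 5.91% of all genes, and the smallest limma adjusted p among members was 0.724. Sesn2, Asns, Vldlr, Gpt2 and Stc2 reached 0.3 in both sets, 5 of 30, where 5.55% of all genes did.

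For PPARβ against PPARγ, 23 members again lay above 0 and 7 below, where 49.6% of all genes lay above 0. Their median was 0.12 (0.05 and 0.16) against -0.0017 over all genes. Unadjusted, 4 members passed 0.05 with the block, against 7.07% of all genes: Cars (0.50, 95% interval 0.15 to 0.85), Asns (0.44, 0.10 to 0.78), Vldlr (0.69, 0.16 to 1.22) and Eif4ebp1 (0.43, 0.07 to 0.78). The smallest adjusted p was 0.634. Chac1, Asns, Eif4ebp1 and Cars reached 0.3 in both sets, where 5.51% of all genes did. For PPARγ against PPARα, the median was 0.01. Cars at -0.61 (interval -0.97 to -0.26) was the 1 member under 0.05 unadjusted, against 5.69% of all genes, with an adjusted p of 0.854. Cars, and Stc2 on the higher side (0.67 and 0.999), reached 0.3 in both sets, where 5.15% of all genes did. Atf4 differed by 0.16 (interval -0.15 to 0.46), 0.17 (-0.14 to 0.47) and -0.01 (-0.31 to 0.29) in the order of these pairs.

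Tested for any difference among the 4 treatments with the block, Cars, Mars and Vldlr had an unadjusted p under 0.05, against 6.1% of all genes, and the smallest limma adjusted p of a member was 0.813. The 101 genes of the further lists behaved likewise, with 0 called in each of the 6 comparisons by limma in either fit. At an unadjusted p under 0.05 they numbered 0 to 1 per comparison without the block, where 1.77 to 2.65% of all genes passed. With the block these 101 genes gave 2 to 6, where 4.86 to 7.07% of all genes passed. Their changes against DMSO ran from -0.41 to 0.42 with the PPARα, from -0.43 to 0.58 with the PPARβ and from -0.51 to 0.52 with the PPARγ agonist. The second cluster that carries the symbol Ddit3 read 7.42 to 8.10 over the 8 arrays and was left out of the tests, as was the cluster of Aars and Exosc6. Against DMSO, with the 3 agonists in the same order, the cluster of Aars and Exosc6 stood at -0.04, 0.21 and 0.10. The second Ddit3 cluster stood at -0.20, -0.03 and -0.25, and the Ddit3 cluster used in the tests at -0.20, 0.21 and 0.10.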

How the data were processed

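Each of the 8 samples gave 1 array, from biotin-labelled DNA made out of 100 ng of total RNA, per the labels. The deposited values are log2 RMA expression values that the authors made with Expression Console, per the labels, and RMA stands without a version in the submitters' processing notes. A deposited linear intensity column and the deposited value matrix held the same values, to 1.5e-06 and 5.0e-07 on the log2 scale. Clusters and coordinates are those of annotation release na36 for mouse build mm10, per the file headers. RMA gives all arrays one distribution, which removes a change shared by most genes. The number of columns of other samples was 0.

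Of 22206 clusters, 21371 name 1 gene, 832 several and 3 none, and 20399 were matched by entrez ID to RefSeq genes of GRCm38.p6. A gene with several clusters was read from the one with the highest mean, which left 21160 genes. The 12696 genes with a mean of at least 4.892, the 40th percentile, were tested. limma 3.58.1 (R 4.3.3) fitted 4 group means to the 8 arrays, two-sided, with 4 residual and 3.754 prior degrees of freedom, Benjamini-Hochberg adjustment over all genes tested and a threshold of 0.05. A second fit took the culture set as a replicate block, with 3 residual and 4.264 prior degrees of freedom, and gave the 95% intervals and the set difference. The pairing rests on the shared title prefix, and set differences of any 2 treatments correlated at 0.496 to 0.55 across genes. Separate animals or cultures are not stated in the labels, so that p-values cover only the spread of these arrays, which may be technical. Both fits were tested on simulated data. Tables and plots used Python 3.11.15, pandas 2.3.3, numpy 2.4.6 and matplotlib 3.10.9.

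The members, their roles and the 7 further lists were chosen with earlier results of these data known. All members may be named, and of the further lists the genes past the threshold in either fit, otherwise up to 2 with the highest and 2 with the lowest change. Gdf15, Fgf21, Bbc3, Aars2, Ears2 and Gldc lay below the floor, and Gcn1, Pdia4 and Manf had no cluster of their own. Some genes of the lists are not reported here by name. Promoter windows of Aldh1l2, Eif4ebp1, Cth, Wars, Nars and Cars were not used here. Alternatives changed the variance model, the filter, the centring, the choice among clusters and the block, and left out 1 array at a time.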

Additional observations from a re-analysis of the deposited data

How the results depend on the processing

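In the 6 treatment comparisons, 0 members were called under every alternative run, the replicate block included, where the smallest adjusted p of a member was 0.582; with 2 arrays a group, only changes well above the spread could pass. The block changed no call of a member. The count of members called between the sets was 12, all lower in set 2. With an intensity trend and robust variances it was 17 of 30, with 16 lower, Chac1, Eprs, Phgdh and Stc2 newly among them, and Vldlr higher. It was 8 of 32 without a filter on low values, 11 of 21 with the filter at the 60th percentile, 11 of 30 with arrays centred or with the prefix fitted alone, and 12 with the mean of a gene's clusters. Leaving out 1 array drops its pair and gave 6 to 9. The share of all genes called lower also moved, so these counts are to be read against it. It was 9.735% in the main fit, 13.91% with the trend and robust variances, and 3.573% without the filter. With the filter at the 60th percentile it was 17.793%, with arrays centred 9.389%, and with the prefix alone 10.996%. With the mean of a gene's clusters it was 9.751%, and with 1 array left out 5.356 to 6.041%. For the members' medians between treatments, leaving out 1 array unbalances the sets, so that these values take in the set difference by construction: they ran from -0.28 to 0.0246 for the PPARα, -0.15 to 0.16 for the PPARβ and -0.24 to 0.19 for the PPARγ agonist against DMSO, -0.11 to 0.35 for PPARβ against PPARα, -0.15 to 0.26 for PPARγ against PPARα, and -0.12 to 0.31 for PPARβ against PPARγ. With 21 members left by the 60th percentile filter, the median of PPARγ against PPARα turned from 0.01 to -0.02. Under the remaining alternatives, single arrays left out aside, each of the 6 medians kept its sign. Genes near the floor, such as Chac1, are limited by signal over background.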
